A study of Mus musculus with 2 samples.

Results

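The genes of the core glycolytic pathway described here were Hk1, Hk2, Hk3, Gpi1, Pfkl, Pfkp, Gapdh, Pgam1, Pkm and Ldha. They were taken by name, for their role in the pathway, and are 10 of the 21924 protein-coding genes of the mouse annotation (GENCODE release M21). All 10 lie on autosomes. The series mapped trimethylation of lysine 36 of histone H3 (H3K36me3) by chromatin immunoprecipitation and sequencing in macrophages grown from the bone marrow of C57BL/6J mice and given no stimulus. It holds 1 group of 2 biological replicates, entered as different biosamples with the same donor entry, so their spread may be technical. The animals' sex and age were not collected. Each library was made from 10 ng of DNA.

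H3K36me3 is written by Setd2, an enzyme that rides on elongating RNA polymerase II, so the mark builds up over the transcribed part of a gene and is usually densest away from the start. Glycolysis turns glucose into pyruvate in the cytosol: hexokinases trap the sugar, phosphofructokinase commits it to the pathway, and the later enzymes return ATP and NADH. Macrophages are known to raise this pathway when activated, but the cells here were not stimulated.

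The measure is the covered share, the percent of a gene's annotated body that lies under the peaks called by the authors in a replicate. Replicate 1 has 32098 peaks over 28.5 Mb and replicate 2 has 58505 peaks over 79.4 Mb, and 9 of the 10 glycolysis genes have a larger covered share in replicate 2. Read depth is unknown, no counting interval can be given, and a gene without a peak is undetected in that list. With 2 samples of 1 group no test was possible, and every comparison is given as the values in both replicates. In a mixed cell population, fewer cells with the mark and less of the mark per cell cannot be told apart. The label was checked on markers. Of 9 macrophage markers, 7 had a peak in replicate 1 (29.1% of all coding genes did) and 9 in replicate 2 (38.3%); Cd68 and Lyz2 had none in replicate 1. Among the 7 was Csf1r, the receptor of the macrophage growth factor, with a covered share of 25.0% in replicate 1 and 54.7% in replicate 2. None of the 22 markers of T cells, B cells, neutrophils, fibroblasts or erythroid cells had a peak in either replicate.

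Of the 10 glycolysis genes, 8 had a peak in both replicates, against 28.8% of all coding genes. In replicate 1 alone 8 had a peak (29.1% of all coding genes did), and in replicate 2 alone 9 did (38.3% of all coding genes). The exceptions were Gapdh, with peaks in replicate 2 only, and Pgam1, with none. A covered share of at least 20% was reached by 2 glycolysis genes in replicate 1 (Hk3 and Ldha), against 7.64% of all coding genes. In replicate 2 it was reached by 9, against 23.3% of all coding genes. Hk3 and Ldha were the genes at 20% in both replicates, where the background is 7.62%. The median covered share of the 10 genes was 12.2% in replicate 1 and 44.5% in replicate 2, while the median over all coding genes was 0 in each. Most of the glycolysis genes are known to be expressed in most cells, while Hk2 and Hk3 are more restricted forms. These counts describe the list and set it apart from no other expressed group.

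**Figure D1:**
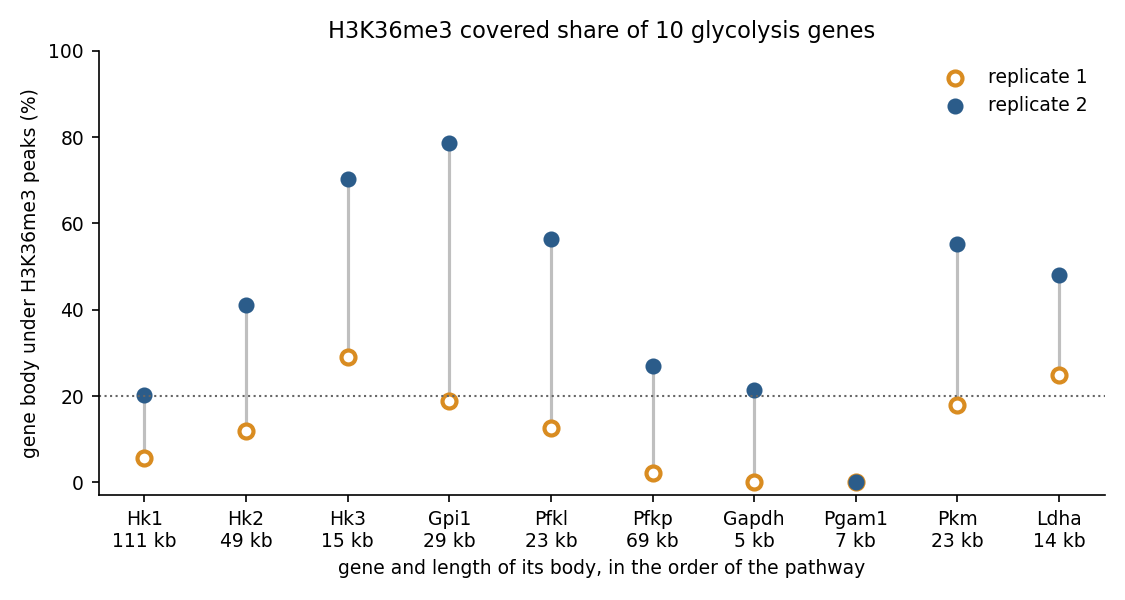
Covered share of each glycolysis gene (percent of the gene body under peaks) in replicate 1 and replicate 2, with genes in pathway order along the axis and 1 point per replicate. All genes but Pgam1 are higher in replicate 2; Gpi1 reaches 78.6% there, and Hk3 has the highest value in replicate 1 at 29.1%.

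The first step, phosphorylation of glucose, is carried by the hexokinases. Hk1 encodes the form found in nearly all tissues, Hk2 the inducible form of muscle, tumours and activated cells, and Hk3 a form enriched in myeloid cells. All of them had peaks in both replicates. To show the DNA itself, the strongest peak of replicate 1 whose 151 bases around the summit hold no untranslated region was taken in the hexokinase and phosphofructokinase isoforms and in Ldha, 6 genes in all. These bases are printed from the RefSeq GRCm38.p6 genome, 5′ to 3′ on the strand of the gene. Capitals mark exon bases of coding transcripts, so a sequence in lower case is intronic. The hexokinase windows are chr13:55013719-55013869 (minus strand) for Hk3, chr10:62283629-62283779 (minus strand) for Hk1 and chr6:82738791-82738941 (minus strand) for Hk2.
Hk3: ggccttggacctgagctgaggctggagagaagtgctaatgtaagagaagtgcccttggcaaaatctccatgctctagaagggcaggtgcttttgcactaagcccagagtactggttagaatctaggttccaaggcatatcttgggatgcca
Hk1: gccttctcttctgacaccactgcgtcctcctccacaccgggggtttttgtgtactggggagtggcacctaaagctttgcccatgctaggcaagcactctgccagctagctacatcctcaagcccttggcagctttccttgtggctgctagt
Hk2: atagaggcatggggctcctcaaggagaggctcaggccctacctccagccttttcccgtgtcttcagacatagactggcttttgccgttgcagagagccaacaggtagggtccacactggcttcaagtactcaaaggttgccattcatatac
All of these windows are intronic. Their GC content was 50.3% for Hk3, 56.3% for Hk1 and 53.0% for Hk2, beside 51.5%, 49.0% and 49.1% over the bodies of the same genes. The peak at the Hk1 window had an enrichment over the authors' background of 3.66 in replicate 1 and 5.38 in replicate 2, the highest of that gene in each. At the Hk2 window the enrichment was 3.39 in replicate 1 and 4.58 in replicate 2, and at the Hk3 window 3.39 and 4.79 in the same order.

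Hk3, at chr13:55005985-55021385 on the minus strand, spans 15401 bp. Peaks covered 29.1% of it in replicate 1 and 70.3% of it in replicate 2. In replicate 1 this came from 4 peaks, and in replicate 2 from 2, the larger of them 10771 bp long (chr13:55005217-55015987). That peak ran past the gene end, where 15.4% of the next 5 kb was covered in replicate 2. It reached into the body of Unc5a, which overlaps the last 34 bp of Hk3. That neighbour, an axon guidance receptor gene transcribed towards Hk3, had covered shares of 0 in replicate 1 and 1.42% in replicate 2. Every peak base of replicate 1 within Hk3 was also under a peak of replicate 2.

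Hk2, at chr6:82725025-82774454 on the minus strand, spans 49430 bp. In replicate 1, 9 peaks covered 11.8% of Hk2, and in replicate 2, 14 peaks covered 41.1%. A further peak of replicate 2 (chr6:82724098-82724968, enrichment 3.65) began 56 bp past the annotated end. Coverage reached exons more than introns. In replicate 1, 25.9% of exon bases and 9.85% of intron bases were covered, and in replicate 2 the shares were 62.8% and 38.1%.

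Hk1, at chr10:62268855-62379908 on the minus strand, is the longest of the glycolysis genes at 111054 bp. The covered share was 5.54% from 9 peaks in replicate 1, and 20.3% from 15 peaks in replicate 2. No base in the upstream part of the gene was covered: the first covered base lay 83.7 kb from the start in replicate 1 and 75.3 kb in replicate 2. The annotated transcripts of Hk1 begin at different places. The longest coding transcript (110805 bp) had covered shares of 5.55% and 20.4% in replicates 1 and 2, and a shorter one of 71688 bp had 8.58% and 31.5%. The antisense record Hk1os overlaps 23112 bp of the gene, none of it covered.

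Over the whole gene body the order of the hexokinases was the same in both replicates, Hk3 above Hk2 above Hk1. Hk3 minus Hk1 averaged 36.8 ± 18.7 percentage points (SD, n = 2) and was positive in both replicates. Hk3 minus Hk2 was 17.3 and 29.2 points (23.3 ± 8.41). Hk1 minus Hk2 was −6.24 points in replicate 1 and −20.7 points in replicate 2.

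The genes differ in length, and in covered bases the order was another. Peaks covered 4484 bp of Hk3, 6153 bp of Hk1 and 5825 bp of Hk2 in replicate 1. They covered 10830 bp of Hk3, 22598 bp of Hk1 and 20312 bp of Hk2 in replicate 2, so the shortest gene had the fewest covered bases in each. Over the last 15 kb of each gene, Hk2 had the highest covered share: 33.6% in replicate 1 and 86.2% in replicate 2. Hk3 had 29.9% and 72.2% there, and Hk1 had 21.4% and 65.1%. Hk3 minus Hk2 was therefore −3.75 and −14.0 points in that stretch, the opposite sign to the whole body, while Hk3 minus Hk1 stayed positive at 8.47 and 7.09 points. This window was chosen after the values over the whole bodies had been seen. It takes in 15000 of the 15401 bp of Hk3 but only the end part of Hk2 and Hk1, so unlike parts are compared. Of 10 equal bins from the gene start, bin 9 of Hk3 was covered to 87.0% in replicate 1 and 100% in replicate 2. In Hk2 that bin had 55.3% and 84.6%. Bin 10 had 0 and 100% in Hk3, and 21.9% and 78.0% in Hk2. The median enrichment of the peaks was 3.32 in Hk3, 3.12 in Hk1 and 2.98 in Hk2 in replicate 1. In replicate 2 it was 4.48 in Hk3, from 2 peaks only, 3.82 in Hk1 and 3.96 in Hk2. Hk3 thus had the highest median in each, and the order of Hk1 and Hk2 differed between the replicates. The highest single enrichment was 3.93 in Hk3, 3.66 in Hk1 and 3.39 in Hk2 in replicate 1. In replicate 2 that of Hk3 was the lowest, at 4.79 against 5.38 in Hk1 and 5.21 in Hk2. The related gene Hkdc1, which lies next to Hk1, had no peak in either replicate.

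**Figure D2:**
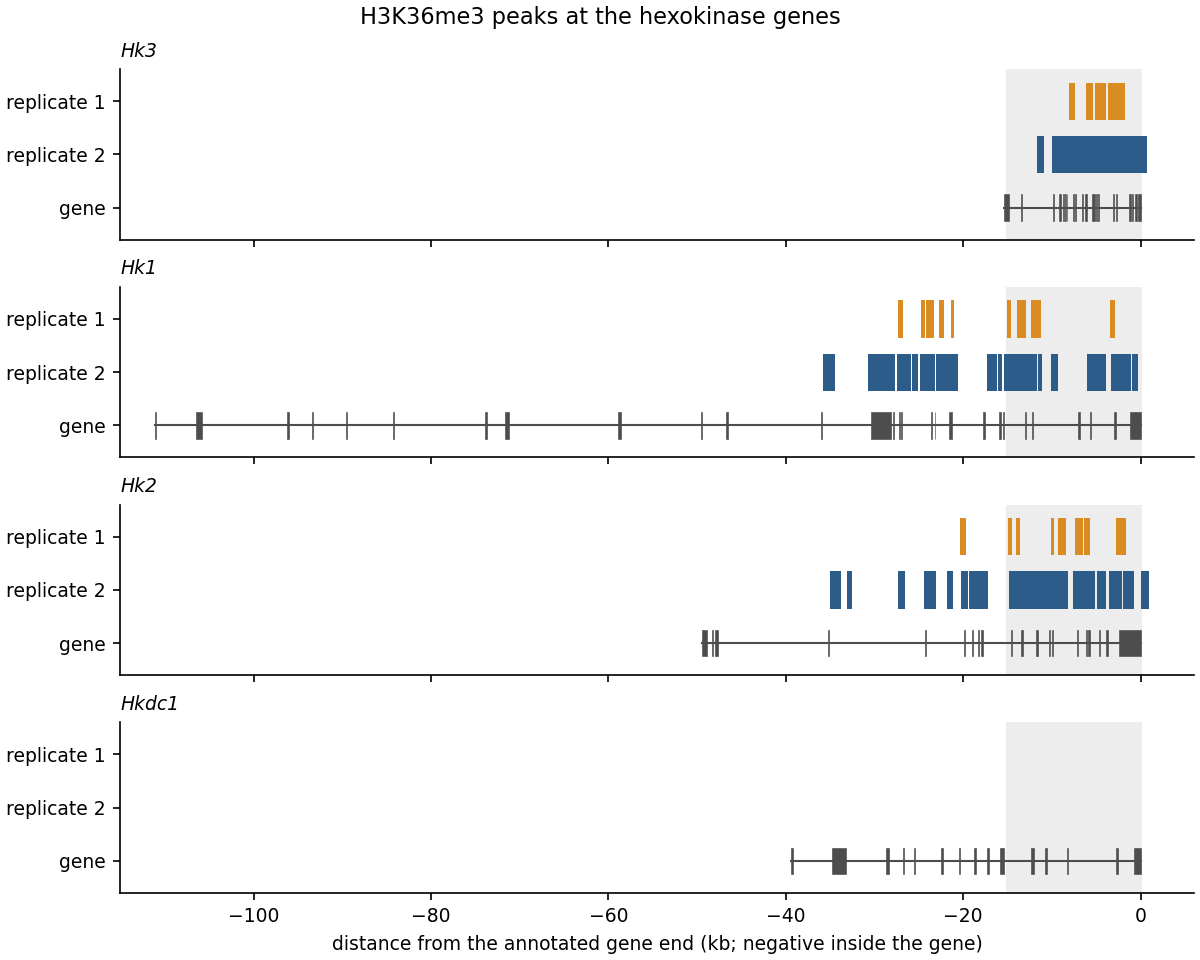
Peaks of replicate 1 and replicate 2 and the annotated exons of the hexokinase genes, drawn to one scale and aligned at the annotated gene end (distance in kb, negative inside the gene; grey marks the last 15 kb). The peaks of Hk3, Hk1 and Hk2 gather towards the gene end, leaving more than 75 kb of Hk1 uncovered, and Hkdc1 has none within the gene.

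Glucose-6-phosphate is turned into fructose-6-phosphate by the isomerase encoded by Gpi1 (chr7:34201330-34230336, minus strand, 29007 bp). It was covered to 18.8% in replicate 1 and to 78.6% in replicate 2, the highest value of any member there. As a share of the body, coverage began closest to the start in Gpi1 among the members with peaks. It began at 8.24% of the body (2.39 kb) in replicate 1 and at 9.83% (2.85 kb) in replicate 2. The next by this share were Pfkl at 36.8% in replicate 1 and Hk3 at 24.1% in replicate 2. In kb, Gapdh began closer to the start in replicate 2, at 2.13 kb. Of the covered bases of Gpi1, 58.1% in replicate 1 and 55.6% in replicate 2 lay in the downstream 50% of the body. In replicate 1 Pfkl had a lower share still, 52.1%, and in replicate 2 Gpi1 had the lowest. In replicate 1, bin 2 of 10 equal bins from the start was 61.4% covered, bins 3 to 5 had no peak, and bin 9 was 53.1% covered. In replicate 2 bins 2 to 4 were each covered to at least 93.0%, and bin 6 was the lowest after bin 1 at 49.9%. The strongest Gpi1 peak of replicate 1 (chr7:34226191-34227947, 1757 bp, enrichment 4.20) lay in that upstream stretch and was the strongest in any member in that replicate. A long noncoding RNA record on the opposite strand, Gm26762, overlaps 5482 bp of Gpi1, of which 2292 bp were covered in replicate 1 and 2730 bp in replicate 2. The mark carries no strand, so the share of the signal that belongs to each of these records cannot be told apart.

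The committing step is carried by phosphofructokinase, an enzyme built of liver-type (Pfkl), platelet-type (Pfkp) and muscle-type (Pfkm) subunits. The summit windows, chosen as for the hexokinases, are chr10:77998746-77998896 for Pfkl and chr13:6614552-6614702 for Pfkp, both on the minus strand.
Pfkl: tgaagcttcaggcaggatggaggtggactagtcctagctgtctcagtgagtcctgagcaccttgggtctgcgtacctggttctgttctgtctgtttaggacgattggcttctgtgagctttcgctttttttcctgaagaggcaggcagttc
Pfkp: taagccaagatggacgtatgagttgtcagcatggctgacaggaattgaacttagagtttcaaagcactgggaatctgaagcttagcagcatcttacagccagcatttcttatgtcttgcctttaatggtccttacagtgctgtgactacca
Both are free of coding-transcript exons, although the Pfkp window lies wholly in the exon of a retained-intron transcript. GC content was 51.7% in the Pfkl window and 43.7% in the Pfkp window, the lowest of the 6, beside 54.3% and 46.0% over the gene bodies. The Pfkp peak had an enrichment of 3.93 in replicate 1 and 3.82 in replicate 2. The Pfkl peak had 3.52 in replicate 1 and met no peak of replicate 2. The other 44 of the 45 member peaks of replicate 1 touched one. That share was not computed over all peaks of replicate 1. Of all coding genes, 6377 had a peak in replicate 1, and 6304 had one in both replicates.

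Pfkl (chr10:77986947-78010083, minus strand, 23137 bp) had a covered share of 12.7% in replicate 1, from 4 peaks, and 56.3% in replicate 2, from 9 peaks. Pfkp (chr13:6579768-6648777, minus strand, 69010 bp) had 2.18% in replicate 1, from 2 peaks, and 27.0% in replicate 2, from 16 peaks. The ratio of replicate 2 to replicate 1 was 4.44 for Pfkl and 12.4 for Pfkp, the largest of the members with peaks in both. Pfkm, which is not among the 10 genes, had 0 in replicate 1 and 3.13% in replicate 2, from 1 peak with an enrichment of 3.81.

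Pfkl minus Pfkp was 10.5 percentage points in replicate 1 and 29.3 points in replicate 2 (mean 19.9 ± 13.3, SD, n = 2). Over the last 15 kb the order was again Pfkl above Pfkp above Pfkm, in both replicates. Pfkl had 19.6% and 81.3% covered there, Pfkp had 4.68% and 36.7%, and Pfkm had 0 and 8.33%. Unlike the order of Hk3 and Hk2, the sign of Pfkl minus Pfkp in covered share was the same over both stretches. In covered bases the sign differed between the replicates: Pfkl had 2935 bp and Pfkp 1501 bp in replicate 1, while Pfkl had 13028 bp and Pfkp 18623 bp in replicate 2. Just past the end of Pfkp, 32.5% of the next 5 kb was covered in replicate 1 and 66.5% in replicate 2, a stretch within Pitrm1, a convergent gene for a mitochondrial protease with covered shares of 34.2% and 62.6%. The 748 bp that Pfkp and Pitrm1 share were not covered in either replicate.

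**Figure D3:**
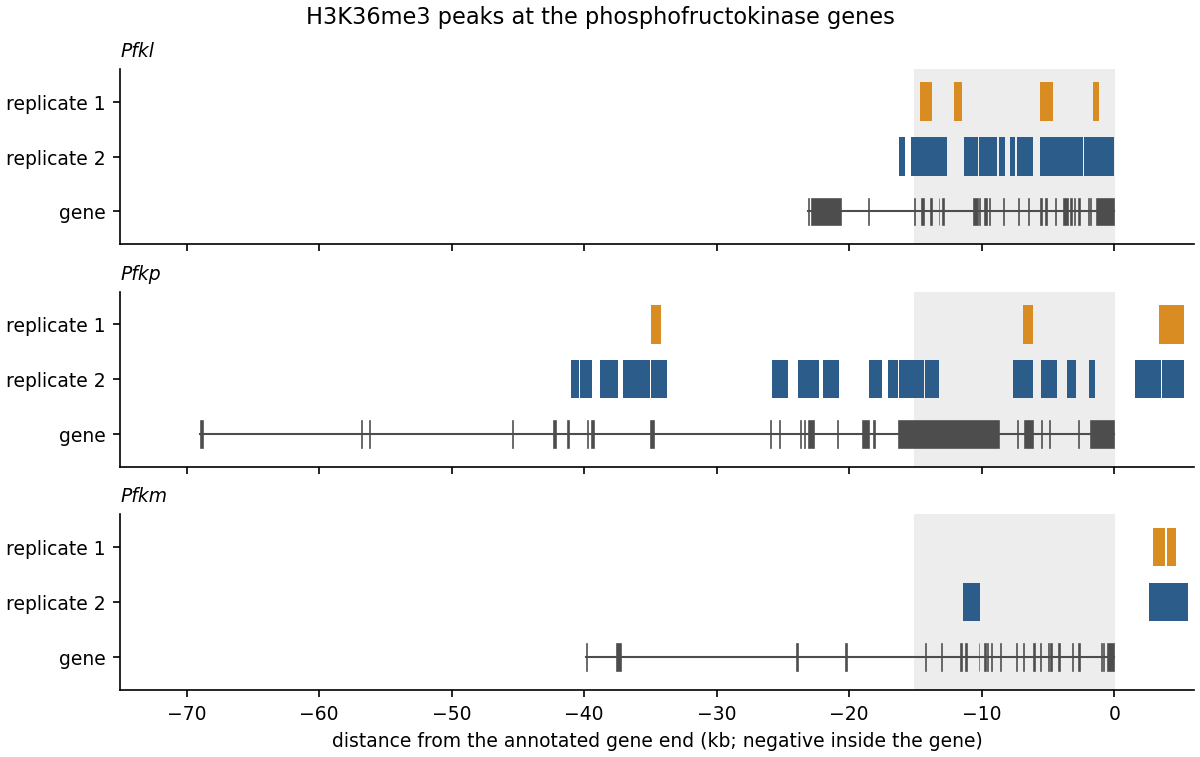
Peaks of replicate 1 and replicate 2 and the annotated exons of the phosphofructokinase genes, aligned at the annotated gene end (distance in kb, negative inside the gene; grey marks the last 15 kb). Pfkl is covered through most of its last 15 kb in replicate 2, Pfkp has separate peaks back to about the middle of the gene, and Pfkm has 1 peak in replicate 2; peaks to the right of 0 lie past the gene ends.

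Gapdh and Pgam1 are the shortest members, and they had the fewest covered bases in each replicate. Gapdh (chr6:125161715-125166467, minus strand, 4753 bp) makes the dehydrogenase that yields NADH. No base of it was covered in replicate 1, and 21.5% was in replicate 2, from peaks at chr6:125162638-125163071 and chr6:125163753-125164340 with enrichments of 3.30 and 2.95. Both lie below the median of 3.83 of the replicate 2 list. In the authors' pooled list neither appeared, and a peak over the gene end left 2.52% of Gapdh covered. The 5 kb past that end were not covered in replicate 1 and were 77.3% covered in replicate 2. They belong to the convergent gene Iffo1, whose own covered shares were 2.53% and 51.7%.

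Pgam1 (chr19:41911923-41918660, plus strand, 6738 bp), the mutase that moves the phosphate of phosphoglycerate, had a covered share of 0 in both replicates. A replicate 2 peak of 1085 bp (chr19:41918664-41919748, enrichment 3.65) began 3 bases past the GENCODE end of the gene. The RefSeq end lies at base 41918665, inside that peak. In the authors' list of replicated peaks, but in no other list, a peak at chr19:41917195-41917604 with an enrichment of 2.56 covered 6.08% of Pgam1.

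Both genes are known to have processed copies elsewhere in the mouse genome. In Pgam1, 86.3% of exon positions start a 31-base word that occurs again in the genome, and in Gapdh 28.0% do. The exon shares were 30.4% in Ldha, 29.0% in Pkm and 15.2% in Gpi1, all of which had peaks in both replicates. They were at most 1.20% in the hexokinase and phosphofructokinase members. Over the whole gene body the share was 27.1% in Pgam1, 24.1% in Gapdh and at most 11.5% in the other members. Within Gapdh, the bases covered in replicate 2 had a repeated share of 20.7%, and the uncovered bases 25.1%. How reads that match several places were handled is not given in the sources used here, and the part of these copies in the low coverage was not tested.

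Pyruvate kinase, the last ATP-yielding step, is encoded by Pkm (chr9:59656368-59679375, plus strand, 23008 bp). In replicate 1, 6 peaks covered 17.9% of the gene, and 9 peaks covered 55.3% in replicate 2. In replicate 1 every covered base lay in the downstream 50% of the gene, beginning 14.1 kb from the start, and in replicate 2 coverage began at 6.68 kb. Exons were covered more than introns, with 31.8% and 14.0% in replicate 1 and 69.5% and 51.4% in replicate 2. The record Gm49759, on the same strand, overlaps 3887 bp of Pkm and spans both exons described next. Of that overlap, 2378 bp were covered in replicate 1 and 3709 bp in replicate 2. With bases shared with another gene record left out, the mean covered share of Pkm was 28.1%, against 36.6% over the whole record.

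Pkm makes the M1 or the M2 enzyme by including one or the other of a pair of neighbouring exons, and M2 is the form known for its role in activated macrophages and tumours. Both exons are 167 bp long. They are shown because they are the part of the gene that separates the isoforms: the M2 exon at chr9:59675568-59675734 and the M1 exon at chr9:59675029-59675195, on the plus strand, from the RefSeq GRCm38.p6 genome. Capitals mark the positions at which they differ.
Pkm M2 exon: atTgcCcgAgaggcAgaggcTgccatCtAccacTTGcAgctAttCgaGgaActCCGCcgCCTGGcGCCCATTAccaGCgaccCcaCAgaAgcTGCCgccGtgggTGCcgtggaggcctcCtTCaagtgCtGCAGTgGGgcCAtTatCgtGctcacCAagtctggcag
Pkm M1 exon: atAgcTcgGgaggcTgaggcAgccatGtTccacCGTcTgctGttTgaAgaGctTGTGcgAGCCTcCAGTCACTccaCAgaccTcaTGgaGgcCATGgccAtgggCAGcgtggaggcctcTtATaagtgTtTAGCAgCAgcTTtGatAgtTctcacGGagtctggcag
They differ at 64 positions and share 103, or 61.7%. Both were covered over their whole length in both replicates, in replicate 1 by the same peak (chr9:59674954-59675743) and in replicate 2 by a peak of 4152 bp (chr9:59674041-59678192). At this resolution the covered share did not separate the M2 exon from the M1 exon.

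Ldha (chr7:46841475-46855627, plus strand, 14153 bp) makes the lactate dehydrogenase subunit that turns pyruvate into lactate. With 5 peaks in each replicate, 24.9% of it was covered in replicate 1 and 48.0% in replicate 2, and the ratio of replicate 2 to replicate 1 was 1.93, the lowest of the members with peaks in both. Of the bases covered in replicate 2, 50.4% were also covered in replicate 1. For the other members with peaks in both replicates that share ran between 7.89% in Pfkp and 41.4% in Hk3. The ratio sets an upper limit on this share, so it is not a separate observation. In the other direction Ldha was not the highest. The share of replicate 1 bases also covered in replicate 2 was higher in Hk3, Hk1, Pfkp and Pkm, and lower in Hk2, Gpi1 and Pfkl. The summit window of the strongest replicate 1 peak (chr7:46850198-46850348, plus strand) lies wholly within a coding exon, unlike the other windows.
Ldha: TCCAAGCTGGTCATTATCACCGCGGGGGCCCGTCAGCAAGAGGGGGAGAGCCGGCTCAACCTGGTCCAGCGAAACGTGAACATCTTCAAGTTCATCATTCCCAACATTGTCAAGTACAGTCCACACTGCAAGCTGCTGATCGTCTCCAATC
Its GC content was 54.3%, against 49.1% over the gene, and the enrichment was 3.66 in replicate 1 and 5.73 in replicate 2. The gene record of Ldha begins well upstream of its shorter coding transcripts. Over the longest coding transcript, which stops short of the gene end, 19.9% was covered in replicate 1 and 34.3% in replicate 2. Over a shorter one that reaches the gene end, 41.5% and 80.0% were.

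Across the members, covered bases lay mostly in the downstream 50% of the gene: 85.2% of them in replicate 1 and 78.3% in replicate 2. Averaged over the 10 genes, bin 1 was 1.76% covered in replicate 1 and 0.169% in replicate 2. The maximum was 31.1% in bin 9 for replicate 1, and 76.2% in bin 8 for replicate 2. In bin 8 of replicate 2, 9 of the 10 genes were covered to at least 50%. Bin 10 was lower than bin 9 in both, at 13.6% and 61.3%. None of the 13 RefSeq promoter windows of the members (short stretches around each annotated start) touched a peak in either replicate. Over all genes, 0.402% of the windows touched a peak in replicate 1 and 1.14% in replicate 2.

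**Figure D4:**
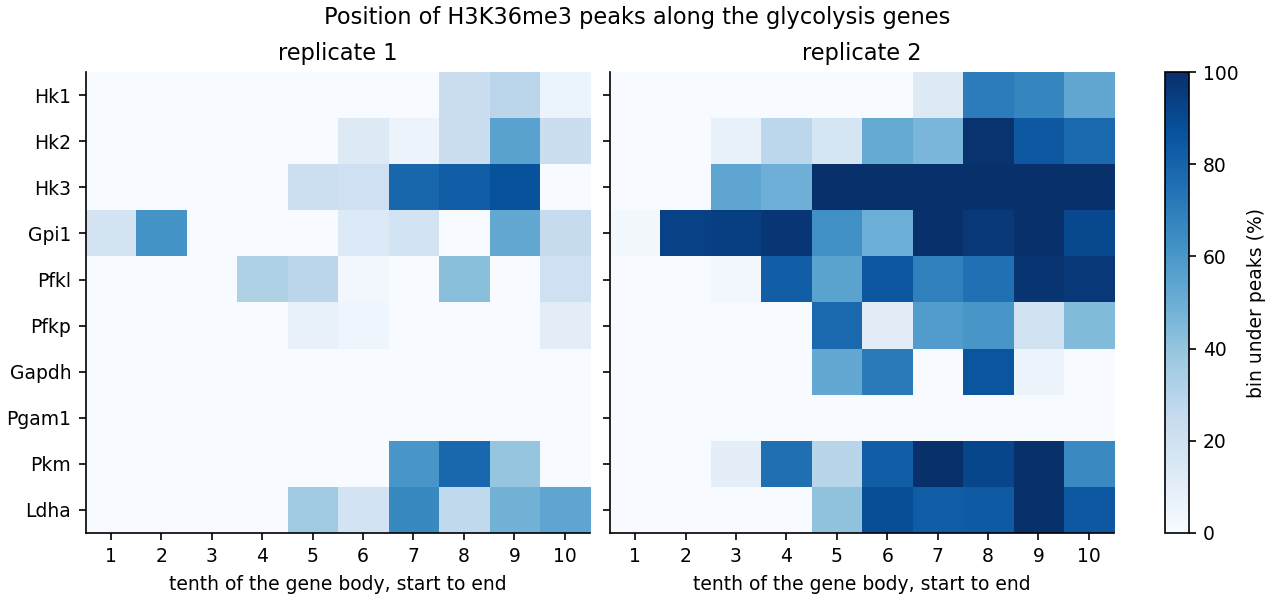
Covered percent in 10 equal bins from the gene start to the gene end for each glycolysis gene, in replicate 1 and replicate 2, with darker cells more covered. Most genes are empty near the start and filled towards the end; Gpi1 is covered from bin 1 (17.6% and 1.69%) and more so in bin 2 (61.4% and 93.0%), and the row of Pgam1 is empty.

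Since the members differ in length, each was also placed among the coding genes whose length is within a factor of 1.5 of its own. By the mean of the replicates, Gpi1 lay above 96.1% and Hk3 above 95.2% of such genes. Hk2 lay above 85.5% and Hk1 above 81.7%, so the order of the hexokinases was the same as over the whole bodies. Pfkl lay above 86.4% and Pfkp above 76.7%, the lowest place of the members with a peak.

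The strength of the member peaks was close to that of their lists. Replicate 1 had 45 of them with a median enrichment of 3.25 (2.14 to 4.20), of which 51.1% lay above the median of its whole list. Replicate 2 had 80 with a median of 3.99 (2.70 to 5.73), of which 52.5% lay above its list's median. Exon bases made up 27.0% of the covered bases in replicate 1 and 25.4% in replicate 2.

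The covered profile of each member, its 10 bins in both replicates, was also set beside those of 6109 candidates, the other coding genes over 5 kb long that had a peak in each replicate. The nearest profile to Hk3 was that of Gtpbp2, with a mean absolute difference of 8.41 percentage points over the 20 values. For Hk1 it was Atf7 (2.62 points), and for Hk2 it was Icam1 (6.35 points), an adhesion molecule gene of immune and endothelial cells. Bud23 was nearest to Pfkl (8.52 points) and Tmem144 to Pfkp (4.85 points). Stk11 was nearest to Pkm (7.18 points) and Arpc2 to Ldha (8.42 points). Gpi1 had the farthest nearest neighbour, Exoc7, at 12.8 points. These differences are descriptions of shape over bins that share their libraries.

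The rest of the pathway and its branches reached a covered share of 20% about as often as coding genes in general. Of 69 genes in 8 lists, 5 were at 20% in both replicates, where the background is 7.62%, and 17 were at 20% in replicate 2, where it is 23.3%. A peak was found in both replicates in 26 of the 69 (28.8% of all coding genes) and in replicate 2 in 36 of them (38.3%). No peak was found in either replicate in 33 of the 69. Their medians were 0 in replicate 1 and 1.89% in replicate 2. Of the other steps, enolase (Eno1) had 5.83% and 50.1% in replicates 1 and 2, and triose-phosphate isomerase (Tpi1) had 0 and 29.5%. Aldolase A has a pair of gene records: the longer Aldoa record had no peak, and the other, of 5518 bp, had 12.2% and 42.2%. Pgk1, the X-linked phosphoglycerate kinase, had none. Of 14 isoforms that other tissues use for the same steps, 2 had a peak in replicate 2 and none in both, where 38.3% and 28.8% of all coding genes did, and none reached 20%.

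The pentose phosphate pathway, which draws on glucose-6-phosphate to make NADPH and ribose, held 3 of the 5 genes at 20% in both replicates, out of its 8 genes (7.62% of all coding genes). They were transaldolase (Taldo1) at 40.7% and 61.9%, 6-phosphogluconate dehydrogenase (Pgd) at 29.8% and 60.7%, and transketolase (Tkt) at 22.7% and 52.0%. The X-linked entry enzyme G6pdx had 1.69% and 4.26%, and Pgls had no peak. The others were Pck2, the mitochondrial PEP carboxykinase, at 30.1% and 57.7%, and Pdhb, a pyruvate dehydrogenase subunit, at 23.7% and 62.1%. These 5 genes were picked for being at 20% in both replicates, and 8 of the 10 glycolysis genes lay below 20% in replicate 1. That the 5 exceed those 8 in replicate 1 therefore follows from the choice.

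Of the enzymes that make or remove fructose-2,6-bisphosphate, the activator of phosphofructokinase, 3 of 5 were at 20% in replicate 2 (23.3% of all coding genes) and none in replicate 1 (7.64%). Pfkfb4 had 1.03% and 29.8%, Pfkfb3 had 9.67% and 25.9%, and Pfkfb2 had 4.77% and 20.8%. Among 8 glucose and lactate transporters, Slc2a6 alone passed 20% in replicate 2 (0 and 29.1%), the level that 23.3% of all coding genes reached. Slc2a1, the main glucose transporter of these cells, had 4.06% and 17.5%, and Slc16a3, the lactate exporter, had 0 and 4.54%. Of 10 regulators, Hif1a, the hypoxia-inducible factor, had 10.2% and 26.5%, its partner Arnt had 7.48% and 29.3%, and Mlxip had 10.2% and 24.3%. Myc and Mlxipl had no peak.

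**Figure D5:**
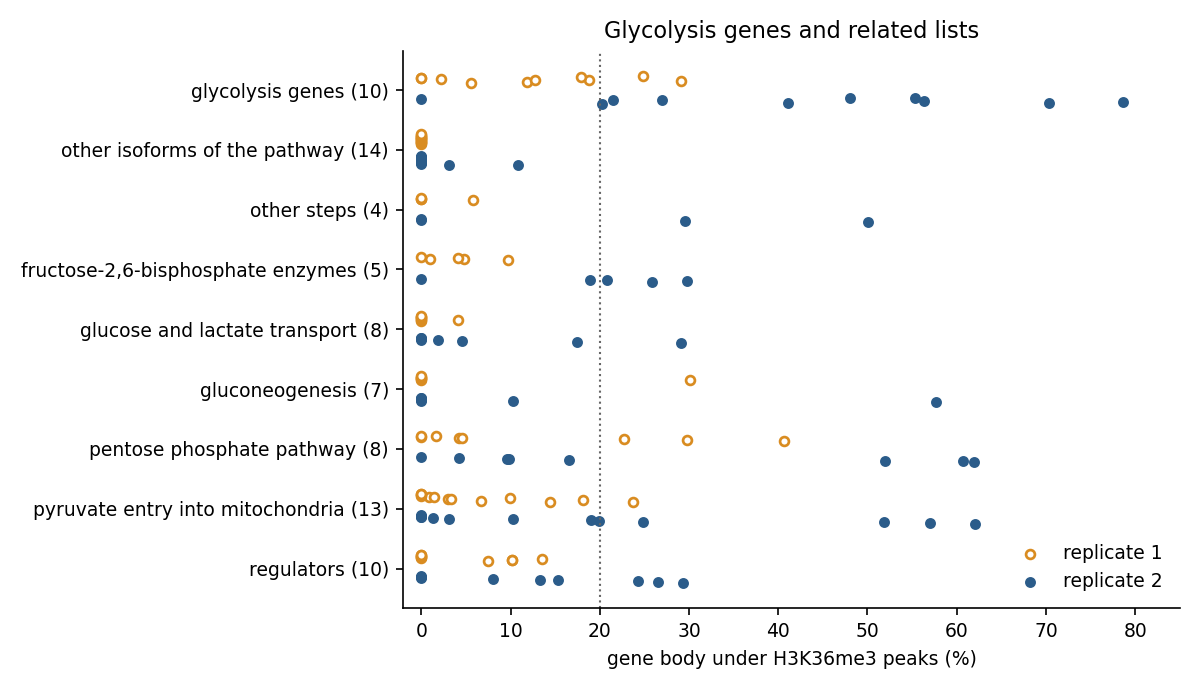
Covered share (percent of the gene body under peaks) of the 10 glycolysis genes and of each list of related genes, in replicate 1 and replicate 2, with 1 point per gene, the number of genes in brackets and a dotted line at 20%. The glycolysis genes have medians of 12.2% and 44.5%; over the 8 lists together the medians are 0 and 1.89%.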

How the data were processed

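H3K36me3 ChIP-seq peaks of 2 replicates of 1 group were used. The authors called peaks on each replicate and kept those found in pseudoreplicates; a pooled list and a list of replicated peaks were also deposited. The sources used here name neither aligner nor caller. Every deposited peak carries an enrichment ratio (fold over the background of the authors' caller). Its deposited −log10 p and its −log10 q come from the same caller. These served to describe peaks and to filter or rank them inside one list. The deposited summit offset placed the printed windows. Fragments of 350 to 480 bp were selected, per the labels.

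Covered shares were computed over gene bodies of GENCODE release M21 (GRCm38, the mm10 assembly). Where a symbol has several records, the longest stands for the gene. The replicates' values are given singly or as mean ± SD. Repeated words were counted at 31 bases on 21 chromosomes, both strands. Genes named outside the 10 members are the 3 highest and 2 lowest of a list by mean covered share, isoforms, neighbours, or the genes behind a small count. Like profiles were ranked by mean absolute difference.

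The members and all lists were chosen with earlier results of these data known. No test between groups was possible. Alternatives were stricter peaks, equal list lengths, other thresholds, the authors' combined lists, each replicate alone and other gene bounds. Python 3.11.15, numpy 2.4.6 and matplotlib 3.10.9 were used. The code that counts covered bases in genes and bins was tested on simulated intervals, and the other steps were not. Some genes of the lists are counted but not reported by name here.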

Additional observations from a re-analysis of the deposited data

How the results depend on the processing

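Of the values that answer a comparison, 80 were classed as unchanged, 22 as moved and 1 as reversed. The unchanged class was wide. The median covered share of the 10 genes (30.5%, mean of the replicates) counted as unchanged at 12.2% without replicate 2 and 44.5% without replicate 1. Hk1 minus Hk2 (−13.5 points) did so at −6.24 and −20.7 points in the same order. Hk3 minus Hk2 (23.3 points, mean of the replicates) was −8.87 points over the last 15 kb of the gene, the reversal; it was 35.8 in the authors' pooled list and 38.8 in their replicated list. Hk3 minus Hk1 (36.8 points) was 7.78 over the last 15 kb. Hk1 minus Hk2 and Pfkl minus Pfkp kept their sign under every alternative run. The number of glycolysis genes at 20% in both replicates (2) was 0 with a −log10 q of at least 5, 0 with an enrichment of at least 3, 1 with the 30000 strongest peaks per list, 6 at a threshold of 10%, 0 at 50%, 7 in the pooled and 7 in the replicated list, 1 over the longest coding transcript and 6 over the last 15 kb; each replicate alone gave 2 to 9, the 9 without replicate 1. For the 69 related genes the count (5) was 1 with a −log10 q of at least 5, 10 at 10%, 0 at 50%, 20 in the pooled and 20 in the replicated list, and 8 over the last 15 kb; each replicate alone gave 5 to 17, the 17 without replicate 1. The share of covered bases in the downstream 50% of the members (81.8%) was 75.0% with a −log10 q of at least 5 and 62.0% over the last 15 kb. The causes were not tested. The last 15 kb and the choice of gene record were alternatives chosen after seeing the data. The last 15 kb are 15000 of the 15401 bp of Hk3, and the whole body of genes shorter than 15 kb. By the mean of the replicates, Hk3 had 49.7% covered over its body and 51.0% over that stretch. Hk2 had 26.4% and 59.9%. No paired analysis was possible because the series has 1 group. Covered shares depend on depth and on the strength of the immunoprecipitation, neither of which the peak lists give, so a difference between the replicates is not a measured difference in the mark.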

Other observations

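The 8 lists of related genes hold 5 X-linked genes, and 1 of them (G6pdx) had a peak in each replicate, with no covered share above 4.26%. Of the 64 autosomal genes of the same lists, 25 had a peak in replicate 1 and 35 in replicate 2. Over all coding genes, 4.22% of the 948 on the X chromosome had a peak in replicate 1 and 10.3% in replicate 2, beside 30.5% and 39.9% of those on autosomes. Pgk1, which has no autosomal substitute outside the testis, is among the X-linked genes without a peak. The sex of the animals was not collected.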
